A study of Mus musculus with 8 samples.

Results

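Oxidative phosphorylation was followed through the transcripts of its structural subunits in mouse bone marrow-derived monocytes (BMDMs), the precursors that become osteoclasts, the bone-resorbing cells. Members were the rows named as subunits of the 4 respiratory chain complexes or of ATP synthase: the symbols *Ndufa*, *Ndufb*, *Ndufc*, *Ndufs* and *Ndufv* followed by a number, *Sdha* to *Sdhd*, all *Uqcr* genes, *Cox4* to *Cox8*, all *Atp5* genes, and *mt-Nd*, *mt-Co*, *mt-Atp* and *mt-Cytb*, with pseudogenes left out. The rule gave 100 of the 21958 genes in the tables, 87 in the nuclear genome and 13 in the mitochondrial genome. The nuclear members comprised 39 of complex I, 4 of complex II, 8 of complex III, 18 of complex IV and 18 of complex V, which is ATP synthase. The mitochondrial members comprised 7 of complex I, 1 of complex III, 3 of complex IV and 2 of complex V.

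Bulk RNA-seq was done on 8 libraries in 2 experiments, each with 2 treated or mutant and 2 control libraries, and all BMDMs received 50 ng/ml M-CSF and 100 ng/ml RANKL, the pair of cytokines that drives osteoclast formation. In the first experiment, BMDMs of *LysM-Cre;Arid1a* fl/fl mice, called Arid1a cKO below, were compared with BMDMs whose genotype is labelled only CONTROL. The lysozyme M promoter drives Cre in myeloid cells at large, so the deletion of *Arid1a*, a subunit of the BAF chromatin remodeller, is not restricted to osteoclast precursors. In the second experiment, wild type BMDMs treated with JQ1, an inhibitor of the BET bromodomain proteins, were compared with wild type BMDMs without it. The strain is C57BL/6, and the age of the mice, the dose of JQ1 and whether 2 libraries of a group came from separate animals or cultures are not given in the labels, so each p-value measures only the spread between these libraries.

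The respiratory chain passes electrons from NADH through complex I, or from succinate through complex II, to ubiquinone, then through complex III and cytochrome c to complex IV, where oxygen is reduced. Complexes I, III and IV pump protons across the inner mitochondrial membrane, and complex V uses the gradient to make ATP. Complexes I, III, IV and V are built from proteins of both genomes, whereas complex II is entirely nuclear, and osteoclasts are known as cells rich in mitochondria.

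The libraries held between 15108239 and 17302136 counted reads. *Arid1a* itself had 159 and 229 CPM (read counts scaled to library size with TMM factors) in the control libraries and 126 and 121 in the cKO libraries. It fell by 0.65 ± 0.15 on the log2 scale (standard error; adjusted p = 0.00607, edgeR quasi-likelihood test), read over the whole gene and not only over the deleted exons. The JQ1 columns carry codes that were read as untreated and treated, and their libraries are called a and b. *Hexim1*, a gene known to rise under BET inhibition, was at 54.9 and 54.4 CPM in the columns read as untreated and at 106 and 111 CPM in those read as treated. Of the fixed markers, all 7 of monocytes and macrophages and 7 of 9 of osteoclasts reached 10 reads in at least 1 library (*Calcr* and *Oscar* did not), while all 4 measured B cell and all 5 T and NK cell markers stayed under 10 reads in every library. In bulk RNA, fewer cells of a type and less RNA per cell cannot be told apart.

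Reads on the 13 mitochondrial members were more frequent than reads on the 87 nuclear ones in every library. They made up 3.0% and 3.3% of all counted reads in the Arid1a control libraries and 2.47% and 2.41% in the Arid1a cKO libraries. They made up 1.88% and 1.84% in the JQ1 control libraries and 2.07% and 2.05% after JQ1. The mitochondrial share was therefore lower in both cKO libraries than in both controls and higher in both JQ1 libraries than in both of theirs. The nuclear members made up 0.674% and 0.590% in the Arid1a controls against 0.479% and 0.479% in the cKO, and 0.753% and 0.797% in the JQ1 controls against 0.701% and 0.698% after JQ1. The nuclear share was thus lower in both treated or mutant libraries of each experiment. With 2 libraries against 2, no exact permutation test of a single value can pass 0.05, and none was made.

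**Figure D1:**
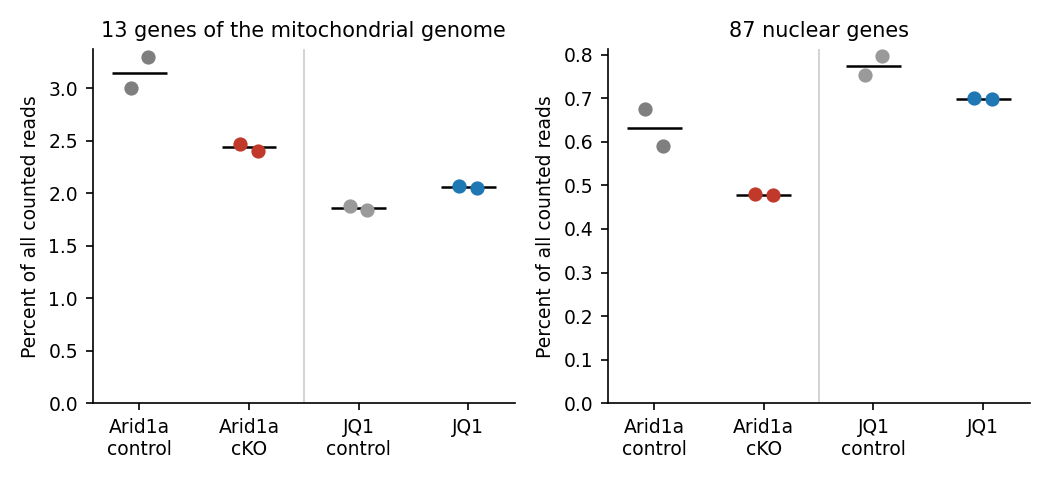
Percent of all counted reads on the 13 mitochondrial members (left) and the 87 nuclear members (right) in each of the 8 libraries; points are libraries, horizontal lines are means of 2 libraries, and both axes start at 0. The mitochondrial share goes down in Arid1a cKO (2.47% and 2.41% against 3.0% and 3.3%) and up after JQ1 (2.07% and 2.05% against 1.88% and 1.84%), while the nuclear share is lower in both.

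The mitochondrial genome is compact, and its genes were not equally readable. In the mouse reference genome GRCm39, positions 6394 to 11042 of the mitochondrial genome, 4649 bases, have a near-identical copy on the minus strand of chromosome 1 between 24650616 and 24655265. The copy differs from the mitochondrial sequence by 1 substitution, T9461C in *mt-Nd3* (mitochondrial base, position in the mitochondrial genome, base of the copy), and by 1 inserted base. The copy begins inside *mt-Co1* (positions 5328 to 6872), which encodes the catalytic subunit of complex IV, and ends inside *mt-Nd4* (positions 10167 to 11544), a proton-pumping subunit of complex I. The edges are shown because they divide the genes that can be told from their nuclear copy from those that cannot. Capitals mark the bases inside the copied interval, and each chromosome 1 line is read 5′ to 3′ on the minus strand, along the mitochondrial line above it.
*mt-Co1* edge, mitochondrial genome, 6344 to 6443, plus strand: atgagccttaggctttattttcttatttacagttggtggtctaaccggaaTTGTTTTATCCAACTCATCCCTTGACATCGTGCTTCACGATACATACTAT
*mt-Co1* edge, chromosome 1, 24655216 to 24655315, minus strand: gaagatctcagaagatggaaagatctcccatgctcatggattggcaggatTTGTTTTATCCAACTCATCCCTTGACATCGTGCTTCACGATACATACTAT
*mt-Nd4* edge, mitochondrial genome, 10993 to 11092, plus strand: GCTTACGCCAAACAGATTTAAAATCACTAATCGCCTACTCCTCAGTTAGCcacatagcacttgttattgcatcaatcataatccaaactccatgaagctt
*mt-Nd4* edge, chromosome 1, 24650566 to 24650665, minus strand: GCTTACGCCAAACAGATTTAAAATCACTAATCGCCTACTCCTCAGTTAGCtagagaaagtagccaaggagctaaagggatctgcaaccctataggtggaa

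Within the capitals, 50 of 50 positions were identical at each edge, and outside them 17 of 50 before the *mt-Co1* edge and 14 of 50 after the *mt-Nd4* edge. The share of each gene's 75-base stretches that occur exactly anywhere else in GRCm39, on chromosome 1 or another chromosome, was 100% for *mt-Co2*, *mt-Atp8*, *mt-Atp6*, *mt-Co3* and *mt-Nd4l*, 98.9% for *mt-Nd3*, 61.5% for *mt-Nd4*, 39.8% for *mt-Co1*, 5.71% for *mt-Nd2* (on chromosome 2), 1.66% for *mt-Nd5* (mostly on chromosome 4) and 0% for *mt-Nd1*, *mt-Nd6* and *mt-Cytb*. Over stretches of 150 bases, since the read length is not known here, the shares were 59.2% for *mt-Nd4*, 23.6% for *mt-Co1* and 0% for *mt-Nd2* and *mt-Nd5*. The 6 genes over 90% held between 0.201% and 0.289% of all reads on the mitochondrial members in a library.

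Read counts differed widely within complex IV. *mt-Co1* had 262539 and 262056 reads in the Arid1a controls and 250801 and 237152 in the cKO. *mt-Co2*, which encodes the subunit that receives electrons from cytochrome c, had 773 and 747 against 513 and 472. *mt-Co3*, the third mitochondrial subunit of complex IV, had 358 and 334 against 180 and 154. *mt-Atp8*, an ATP synthase subunit whose 75-base stretches are all copied, had 0 reads in all 8 libraries. How reads with several matches were counted is not given in the sources used here, so the level of *mt-Co2*, *mt-Co3*, *mt-Atp6*, *mt-Atp8*, *mt-Nd3* and *mt-Nd4l* is uncertain, and their changes are given as those of the reads that were counted. *mt-Co1* and *mt-Nd4* lie partly inside the copied interval, so their levels are uncertain in part as well.

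**Figure D2:**
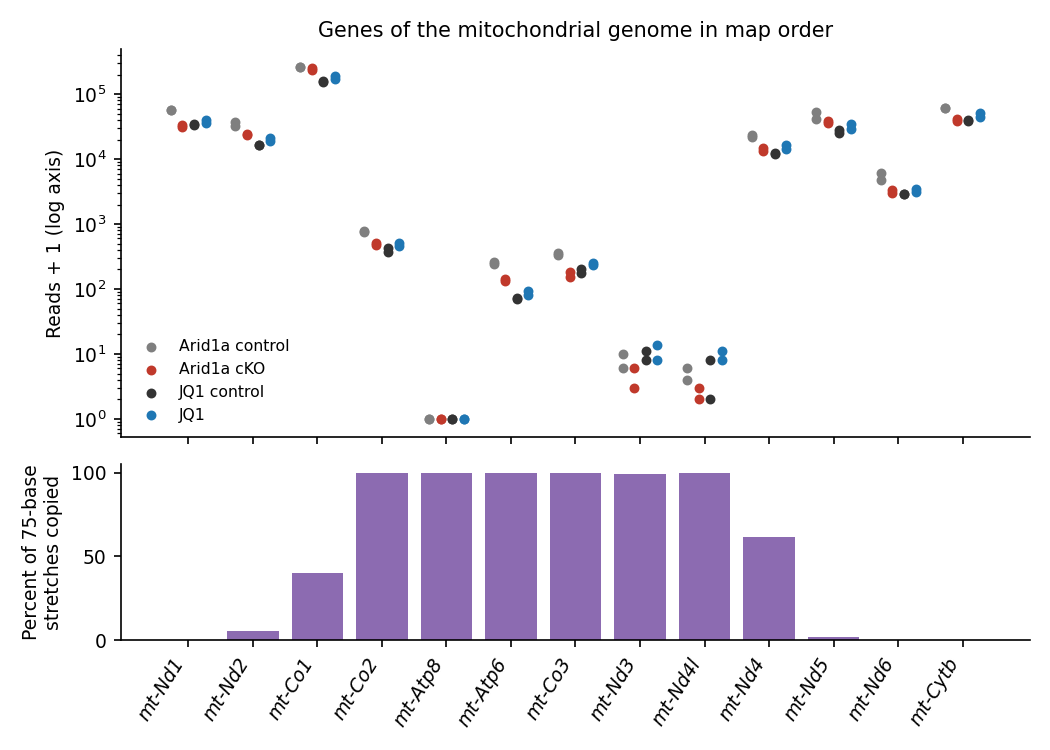
Reads per library plus 1 (top, log axis; each point is a library) and percent of 75-base stretches found elsewhere in the genome (bottom) for the 13 mitochondrial members in the order of their map. The 6 genes at or near 100% hold at most 773 reads, and *mt-Atp8* none, while the other 7 hold between 2878 and 262539.

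After Arid1a loss, 8 of the 10 mitochondrial members that passed the filter on low counts fell (adjusted p under 0.05, termed called below) and none rose, with a median log2 fold change of -0.65. The background over all 11319 genes tested was 16.3% called lower and 18.1% called higher, with a median of -0.0035. At an unadjusted p under 0.05, 9 were lower and 0 higher, and DESeq2 called 9 lower and 0 higher. *mt-Nd1*, a membrane subunit of complex I near the ubiquinone site, had 3484 and 3685 CPM in the controls and 2062 and 2003 in the cKO, with no overlap between the groups. It fell by 0.82 ± 0.08 (adjusted p = 3.49e-05). *mt-Cytb*, a haem-bearing subunit of complex III, had 3668 and 3921 CPM against 2565 and 2508 and fell by 0.58 ± 0.08 (adjusted p = 0.000386).

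*mt-Nd6*, the only mitochondrial member on the other strand (positions 13552 to 14070, minus strand), had 366 and 308 CPM against 210 and 194. It fell by 0.74 ± 0.10, *mt-Nd4* by 0.69 ± 0.08 and *mt-Nd2* by 0.53 ± 0.10. Whether counting used strand is not given in the sources used here, so reads from the 2 strands over *mt-Nd6* cannot be told apart. Of the genes inside the copied interval, *mt-Co2* fell by 0.62 ± 0.11, *mt-Co3* by 1.04 ± 0.15 and *mt-Atp6*, which encodes the proton channel subunit of ATP synthase, by 0.84 ± 0.16, all on counted reads.

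*mt-Co1* and *mt-Nd5* did not pass. *mt-Co1* had 15979 and 16865 CPM in the controls and 15522 and 15197 in the cKO, a change of -0.10 ± 0.08 (adjusted p = 0.392), and its sign turned, without a call, when library-specific trends with gene length or with GC content and transcript length were removed (0.10 and 0.00). Its share of all reads on mitochondrial members, counted with part of the gene inside the copied interval, was 54.1% and 52.6% in the controls and 61.5% and 61.7% in the cKO. *mt-Nd5*, the largest mitochondrial subunit of complex I, had 2508 and 3420 CPM in the controls and 2388 and 2304 in the cKO, a change of -0.34 ± 0.13 (adjusted p = 0.0623). Control 2 stood above the other 3 libraries for this gene, and its change was -0.55 without control 1 and -0.10 without control 2. DESeq2 called it lower (adjusted p = 0.0475), where the adjusted p ranged from 1.3e-53 to 0.51 over the alternatives.

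After JQ1, the mitochondrial members moved the other way: 8 of 11 tested rose and 0 fell, with a median of 0.25, against 19.3% called higher and 20.5% called lower over all 11352 genes tested. At an unadjusted p under 0.05, 9 were higher and 0 lower, and DESeq2 called 6 higher and 0 lower. *mt-Nd4*, which lies partly inside the copied interval, had 775 and 770 CPM in the controls and 968 and 961 after JQ1, a rise of 0.32 ± 0.05 (adjusted p = 9.21e-09). *mt-Cytb* had 2462 and 2484 CPM against 2945 and 2994 and rose by 0.26 ± 0.04, and *mt-Nd1* had 2137 and 2162 against 2390 and 2377 and rose by 0.15 ± 0.04. In each of these the libraries of the 2 groups did not overlap, which held for 9 of the 11 mitochondrial members with the JQ1 libraries higher, where 34.2% of all genes tested were higher without overlap.

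*mt-Nd2* rose by 0.25 ± 0.05 and *mt-Nd5* by 0.24 ± 0.05. *mt-Co1* had 9989 and 9878 CPM against 11324 and 11064 and rose by 0.17 ± 0.04 (adjusted p = 0.000527). *mt-Nd6* had 180 and 185 CPM against 228 and 184, so its groups overlapped although it was called (0.18 ± 0.07, adjusted p = 0.0331). Without JQ1 library a its change was 0.02, and it was not called by DESeq2 or limma-voom. *mt-Co2* was called with a rise of 0.26 ± 0.11 (adjusted p = 0.0428) on 372 and 428 against 455 and 512 reads, and *mt-Co3*, *mt-Atp6* and *mt-Nd3* did not pass. The rises were small: none reached a 2-fold change, and without JQ1 library a 4 members were called.

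Nuclear members were called lower more often than higher in both experiments. Of 78 tested after Arid1a loss, 37 fell and 1 rose, with a median of -0.38, against 16.3% of all genes called lower. Both cKO libraries lay below both controls for 63 of the 78, where 34.8% of all genes tested did so. Of 78 tested after JQ1, 26 fell and 2 rose, with a median of -0.13, against 20.5% called lower. Both JQ1 libraries lay below both controls for 39 of the 78, where 34.2% of all genes tested did so. These counts cover members that passed the filter; 9 of the 87 did not in each experiment, and 8 stayed under 10 reads in every library.

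The number of nuclear members called lower after Arid1a loss moved with 1 control library and with a correction for transcript length. Arid1a control 1 lay above control 2 for 72 of the 78 nuclear members tested, by a median of 0.26 on the log2 scale (0.02 over all genes tested). Against control 2 alone, 31 members were lower with a median of -0.25, and against control 1 alone, 66 of 79 with a median of -0.49; without cKO 1 or cKO 2, 12 and 9 were called. After JQ1, 9 nuclear members were called lower without control b, 13 without JQ1 a, 15 without JQ1 b and 12 in DESeq2, against 26. Among other nuclear genes, transcripts shorter than 1000 bases also fell after Arid1a loss. Their median was -0.32 with 31.0% called lower over 413 genes, beside -0.39 for the 38 members of that length. At lengths from 2000 bases to under 4000, the 15 members had a median of -0.33 and the 4373 other genes one of -0.03. With library-specific trends with GC content and transcript length removed, an alternative chosen after seeing the data, 19 nuclear members were lower and 3 higher after Arid1a loss with a median of -0.12, whereas 8 mitochondrial members were lower with a median of -0.39. For JQ1, 13 of 37 members under 1000 bases were called lower, beside 25.95% of the 420 other genes. From 1000 bases to under 2000 it was 5 of 21, beside 25.43% of 1860. From 2000 to under 4000 it was 6 of 15, beside 20.37% of 4370. At 4000 or more, the 5 members had a median of -0.20 and the other genes one of 0.04. With the 2 length corrections, 14 and 17 of the 78 were lower and 5 and 6 higher after JQ1. What part transcript length or RNA quality had in the falls was not tested in either experiment.

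**Figure D3:**
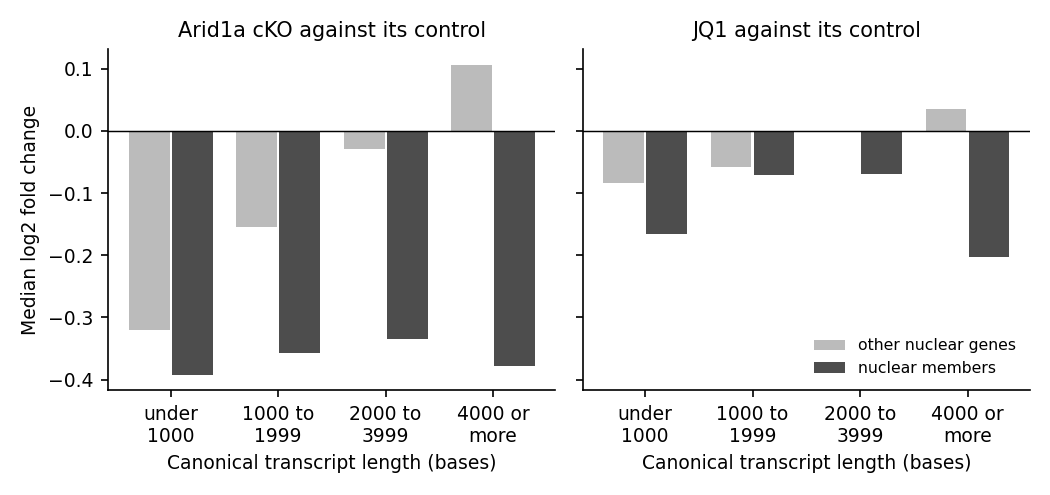
Median log2 fold change of the nuclear members (dark bars) and of all other nuclear genes tested (light bars) by length of the canonical transcript, for Arid1a cKO (left) and JQ1 (right). After Arid1a loss the other genes go from -0.32 under 1000 bases to 0.11 at 4000 bases or more. The members lie between -0.39 and -0.33 in every class there. After JQ1 the other genes go from -0.08 to 0.04, and the members lie between -0.20 and -0.07.

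Complex I showed the fall in both experiments, with 17 of 36 nuclear subunits lower after Arid1a loss (median -0.38) and 13 of 37 after JQ1 (median -0.18), and none higher. Of all genes tested, 16.3% and 20.5% were called lower. Of the 7 nuclear core subunits, which carry the flavin and the iron-sulphur clusters, 5 fell after Arid1a loss and 1 after JQ1, the second share below that of all genes. *Ndufs6*, an accessory subunit with a bound zinc ion (chromosome 13, 73467957 to 73476661), had 22.6 and 18.9 CPM in the controls and 11.9 and 12.3 in the cKO, and fell by 0.78 ± 0.15 (adjusted p = 0.0031). After JQ1 it went from 23.3 and 21.9 to 18.6 and 16.9 CPM and fell by 0.35 ± 0.12. Its groups did not overlap in either experiment.

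*Ndufb8*, an accessory subunit of the membrane arm, had 40.1 and 34.8 CPM in the Arid1a controls and 29.8 and 26.3 in the cKO. It fell by 0.42 ± 0.13 there, and by 0.45 ± 0.08 after JQ1, from 61.6 and 65.4 to 46.9 and 45.8 CPM. The call after Arid1a loss held in 13 of 16 alternatives, with changes from -0.52 to -0.039, and that after JQ1 in 16 of 16. *Ndufa8*, *Ndufc2* and *Ndufa10*, further accessory subunits, were also called lower in both. They fell by 0.42 ± 0.11, 0.71 ± 0.17 and 0.31 ± 0.10 after Arid1a loss, and by 0.28 ± 0.08, 0.31 ± 0.11 and 0.28 ± 0.07 after JQ1. In that order, the calls held in 12, 13 and 14 of 16 alternatives after Arid1a loss and in 15, 10 and 16 after JQ1. The change ranged from -0.48 to -0.088 for *Ndufa8* after Arid1a loss and from -0.52 to -0.076 for *Ndufc2* after JQ1. *Ndufc2* had 25.2 and 34.3 CPM in the JQ1 controls and 24.7 and 23.2 after JQ1. *Ndufv1*, the core subunit that binds NADH and the flavin (chromosome 19, 4057384 to 4062806), had 46.9 and 40.4 CPM against 27.0 and 33.3 after Arid1a loss, a fall of 0.54 ± 0.14. After JQ1 it stood at 57.0 and 58.3 against 53.2 and 58.4 CPM, a change of 0.05 ± 0.08. *Ndufb6* went from 24.4 and 29.4 to 21.0 and 19.6 CPM after JQ1 and fell by 0.40 ± 0.12, while its values of 9.49 and 6.24 against 5.69 and 6.28 after Arid1a loss overlapped.

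Complex II had median changes of -0.14 after Arid1a loss and 0.07 after JQ1 over its 4 genes, 1 of them lower in the first and 1 higher in the second. Beside them, 16.3% of all genes were called lower after Arid1a loss and 19.3% higher after JQ1. *Sdha*, the flavoprotein that oxidises succinate (chromosome 13, 74470373 to 74498399), had 344 and 357 CPM in the Arid1a controls and 329 and 334 in the cKO, a change of -0.08 ± 0.08 (adjusted p = 0.495). After JQ1 it had 416 and 406 CPM against 374 and 378 and rose by 0.13 ± 0.05 (adjusted p = 0.0345), a call that DESeq2 did not make and that did not stand without any one of the 4 libraries. *Sdhb*, the iron-sulphur subunit, was the only complex II gene to fall after Arid1a loss, from 66.2 and 59.8 to 47.0 and 45.5 CPM (0.45 ± 0.11, adjusted p = 0.00949). *Sdhc* and *Sdhd*, the membrane anchors, had overlapping groups after Arid1a loss, with changes of -0.17 ± 0.12 and -0.12 ± 0.15. After JQ1 they stood at 0.06 ± 0.06 and 0.07 ± 0.06, and neither passed.

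Complex III had 4 of 8 nuclear genes lower after Arid1a loss (median -0.45) and 2 of 8 after JQ1 (median -0.09), with 0 genes lower in both. Of all genes tested, 16.3% and 20.5% were called lower, so the share after JQ1 was near the background. *Uqcrh*, the hinge protein that holds cytochrome c1 (chromosome 4, 115924162 to 115932268), had 30.9 and 22.5 CPM in the controls and 15.7 and 15.8 in the cKO, and fell by 0.77 ± 0.17 (adjusted p = 0.00502). *Uqcrfs1*, the Rieske iron-sulphur protein (chromosome 13, 30724291 to 30729345), had 79.9 and 70.5 CPM against 51.4 and 51.3 and fell by 0.55 ± 0.11 (adjusted p = 0.00299). The small subunits *Uqcrb* and *Uqcr11* fell by 0.55 ± 0.18 and 0.58 ± 0.18, and 40.9% of the 75-base stretches of *Uqcrb* occur elsewhere in the genome, but 2.44% of its 150-base stretches. The large scaffold subunits *Uqcrc1* and *Uqcrc2* fell after JQ1 by 0.19 ± 0.06 and 0.22 ± 0.07, *Uqcrc2* from 118 and 119 to 96.7 and 106 CPM. After Arid1a loss they changed by -0.21 ± 0.11 and -0.22 ± 0.10 without passing, and the differences between the experiments were -0.03 ± 0.14 and -0.0013 ± 0.12. *Uqcrh* and *Uqcrfs1* were not called after JQ1, at 67.0 and 67.3 against 55.4 and 65.7 CPM and at 114 and 109 against 102 and 114 CPM.

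Complex IV had 4 of 13 nuclear genes lower and 1 higher after Arid1a loss (median -0.27), beside 16.3% and 18.1% of all genes. After JQ1, 2 of 12 were lower and 1 higher (median -0.07), below the 20.5% and 19.3% of all genes called lower and higher there. With *Ndufa4*, which is named for complex I but is a subunit of complex IV, the count after Arid1a loss was 5 of 14. *Cox7b* (X chromosome, 105059306 to 105066056) had 76.6 and 65.3 CPM in the controls and 49.4 and 48.6 in the cKO and fell by 0.53 ± 0.11 (adjusted p = 0.00467). *Cox4i1*, the widely expressed isoform of the largest nuclear subunit, had 98.5 and 77.2 against 65.3 and 59.4 CPM and fell by 0.50 ± 0.13. After JQ1 it fell by 0.20 ± 0.07 with overlapping groups (120 and 140 against 106 and 120 CPM). These calls held in 14 and 10 of 16 alternatives, with changes from -0.66 to -0.13 and from -0.31 to -0.082. *Cox8a* fell by 0.39 ± 0.10 after Arid1a loss, but its change was 0.02 and 0.07, not called, with the 2 length corrections.

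Among the genes that have tissue-specific partners, the widely expressed isoforms carried nearly all reads. *Cox6a1* had 300 and *Cox6b1* 106 FPKM (reads scaled by gene length and library total; mean of the Arid1a controls), while the heart and muscle isoform *Cox6a2* and the testis isoform *Cox6b2* stood at 0 and 0.143. *Cox4i2*, *Cox7a1*, *Cox7b2*, *Cox8b*, *Cox8c* and *Ndufa4l2* had at most 2.22 FPKM in any group. *Cox6a2* was the nuclear member called higher after Arid1a loss: it had 0 reads in both controls and 16 and 13 in the cKO, at least 9.73-fold higher against a floor of 3 reads over the control group, and passed the filter only through the cKO libraries. *Cox7a2l*, counted with complex IV by its symbol, was called higher after JQ1, from 122 and 123 to 142 and 139 CPM (0.19 ± 0.06, adjusted p = 0.00813). After Arid1a loss it changed by -0.21 ± 0.12 without passing. In *Cox7a2l*, 35.0% of 75-base and 15.5% of 150-base stretches occur elsewhere in the genome, so its level is uncertain.

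Complex V had the largest share of nuclear genes lower, 11 of 17 after Arid1a loss (median -0.44) and 9 of 17 after JQ1 (median -0.18), beside 16.3% and 20.5% of all genes. *Atp5b*, the catalytic beta subunit (chromosome 10, 127919142 to 127926260), had 1125 and 1002 CPM in the Arid1a controls and 832 and 846 in the cKO. It fell by 0.34 ± 0.09 (adjusted p = 0.0123), and by 0.24 ± 0.05 after JQ1 (adjusted p = 7.83e-06), from 1045 and 1093 to 907 and 898 CPM. *Atp5a1*, the alpha subunit that forms the same hexamer, fell by 0.33 ± 0.08 after Arid1a loss, from 834 and 782 to 635 and 646 CPM. After JQ1 it stood at 846 and 820 CPM against 849 and 827, a change of -0.01 ± 0.05. *Atp5c1* and *Atp5d*, of the central stalk, fell after Arid1a loss by 0.40 ± 0.12 and 0.60 ± 0.12, and *Atp5pb*, of the peripheral stalk, by 0.38 ± 0.09.

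The ring of c subunits that turns in the membrane is encoded by 3 genes for the same mature protein, *Atp5g1*, *Atp5g2* and *Atp5g3*. *Atp5g1* (chromosome 11, 95959678 to 95966496) had 51.6 and 41.7 CPM in the Arid1a controls and 26.1 and 29 in the cKO and fell by 0.76 ± 0.13 (adjusted p = 0.00153). After JQ1 it fell by 0.45 ± 0.08, from 79.0 and 83.8 to 59.1 and 60.0 CPM. *Atp5g3* fell by 0.52 ± 0.14 and 0.19 ± 0.06, and *Atp5g2* fell by 0.53 ± 0.12 after Arid1a loss and changed by -0.17 ± 0.07 after JQ1 without passing (adjusted p = 0.0561). For *Atp5g1* and *Atp5g2*, 76.4% and 88.0% of 75-base stretches, and 52.9% and 86.4% of 150-base stretches, occur elsewhere in the genome, so their levels are uncertain, whereas none do for *Atp5g3*. Over the 64 tested nuclear members under 10% copied, 46.9% were lower after Arid1a loss and 35.9% after JQ1, close to the 47.4% and 33.3% of all 78.

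*Ndufb2*, an accessory subunit of complex I, was singled out after its values were seen because it lay apart from the others with rises of 0.78 ± 0.40 and 0.54 ± 0.31 that did not pass, on 21 and 17 against 27 and 38 reads after Arid1a loss and 39 and 38 against 42 and 72 after JQ1. *Atp5o* appeared in 2 rows of the tables, 1 of them with 0 reads in all libraries. The other held between 2 and 26 reads and was called lower after JQ1 (25 and 26 against 2 and 12 reads, 1.87 ± 0.55 on the log2 scale), a call lost in DESeq2 and without JQ1 library a. The most abundant nuclear members per length were *Cox6a1*, *Atp5a1*, *Atp5b*, *Cox8a*, *Cox6b1* and *Atp5c1*, with means over the 4 groups from 262 down to 94.0 FPKM. All lay below *mt-Nd6* at 448 FPKM, the least abundant of the 7 mitochondrial members outside or only partly inside the copied interval. Reads from the 2 strands cannot be told apart over *mt-Nd6*, so its level is uncertain. *Cox6a1*, the most abundant nuclear member, was not called in either experiment (-0.27 ± 0.11 and 0.07 ± 0.06). Under the GC content and transcript length correction it was called higher after Arid1a loss (0.20 ± 0.07). *Cox6b1* was not called either (-0.25 ± 0.10 and -0.07 ± 0.07).

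**Figure D4:**
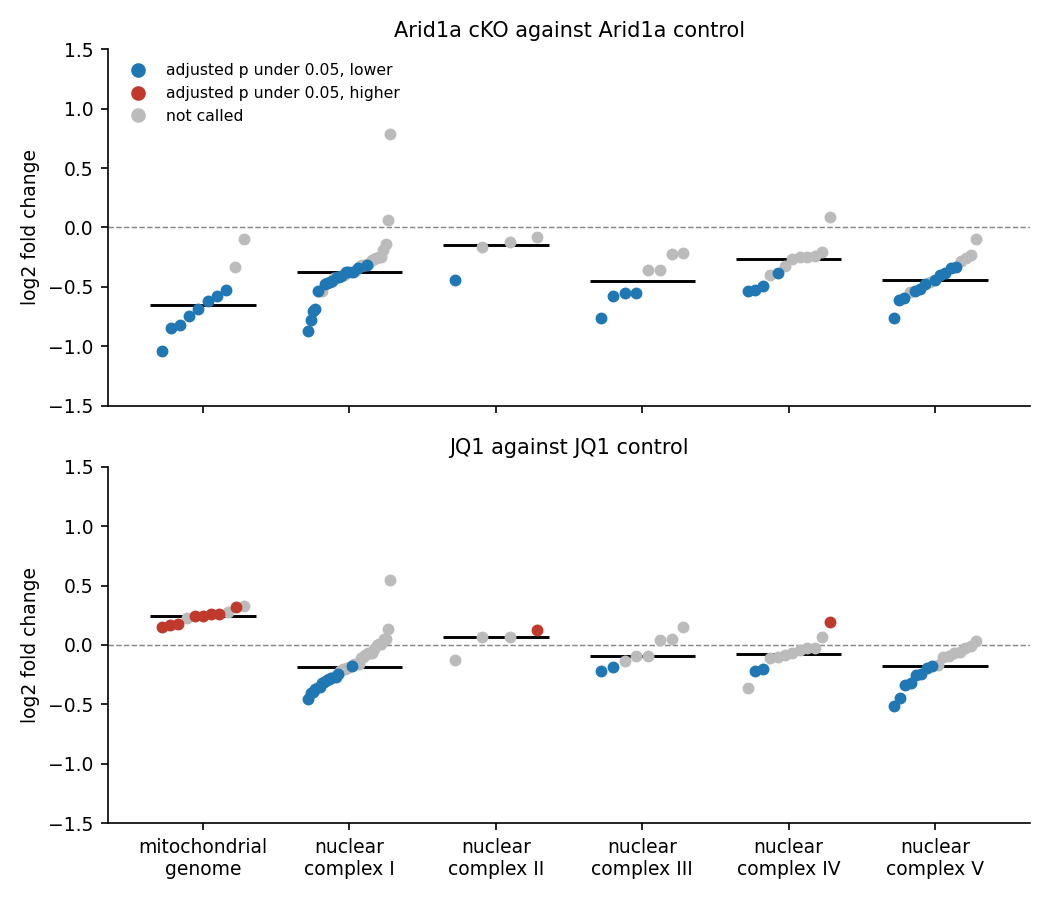
Log2 fold change of each tested member against its control, for Arid1a cKO (top) and JQ1 (bottom), by genome and complex; points are genes, coloured where adjusted p was under 0.05, and lines are medians. *Cox6a2* (top) and *Atp5o* (bottom) lie outside the axes. Mitochondrial members lie below 0 in the upper panel (median -0.65) and above 0 in the lower one (median 0.25), while the medians of nuclear complexes I, III, IV and V are below 0 in both.

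The responses of the members to Arid1a loss and to JQ1 were then compared in 1 fit over all 8 libraries, as the change after Arid1a loss minus the change after JQ1. Over all 11767 genes tested, 28.3% differed. Of the mitochondrial members, 10 of 11 differed, all with the lower value after Arid1a loss, by -0.97 ± 0.08 for *mt-Nd1*, -1.01 ± 0.09 for *mt-Nd4*, -0.85 ± 0.08 for *mt-Cytb* and -0.27 ± 0.08 for *mt-Co1*. The 1 that did not was *mt-Nd3*, with at most 13 reads in a library. Of the 10 tested in both experiments, 6 were called lower after Arid1a loss and higher after JQ1: *mt-Nd1*, *mt-Nd2*, *mt-Nd4*, *mt-Nd6*, *mt-Cytb* and *mt-Co2*. Among all 10987 genes tested in both, 170 had that pattern. The call after JQ1 held in all 15 alternatives for *mt-Nd2*, *mt-Nd4* and *mt-Cytb*. It held in 10 of 15 for *mt-Nd1*, and in 8 of 15 each for *mt-Nd6* and *mt-Co2*.

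Of the nuclear members, 11 of 79 differed, 10 with the lower value after Arid1a loss. Of all 11767 genes tested, 28.3% differed, 1476 with the lower value after Arid1a loss and 1857 with the higher. The nuclear members thus differed less often than all genes, and their share with the lower value was near that of all genes. The largest differences were in complex III, -0.92 ± 0.19 for *Uqcrh* (adjusted p = 0.00163) and -0.60 ± 0.13 for *Uqcrfs1* (adjusted p = 0.00208). The others were *Ndufv1* (-0.58 ± 0.16), *Atp5d* (-0.53 ± 0.14), *Cox7b* (-0.49 ± 0.13), *Atp5pb* (-0.42 ± 0.10), *Cox7a2l* (-0.41 ± 0.13), *Ndufa4* (-0.39 ± 0.14), *Ndufs1* (-0.38 ± 0.12), which is the largest core subunit of complex I, and *Atp5a1* (-0.33 ± 0.09). The 10 became 46 without Arid1a control 2, 4 and 3 without cKO 1 and cKO 2, 3 without JQ1 control a, and 4 and 5 without JQ1 a and JQ1 b. *Cox6a2*, at 0 or near 0 outside the cKO libraries, differed in the other direction. No nuclear member was called in opposite directions in the 2 experiments. In both, 12 of 77 were lower: 6 of complex I, 5 of complex V and 1 of complex IV. The 1 of complex IV was *Cox4i1*, whose call after JQ1 held in 10 of 16 alternatives. Among all 10987 genes, 672 were lower in both.

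**Figure D5:**
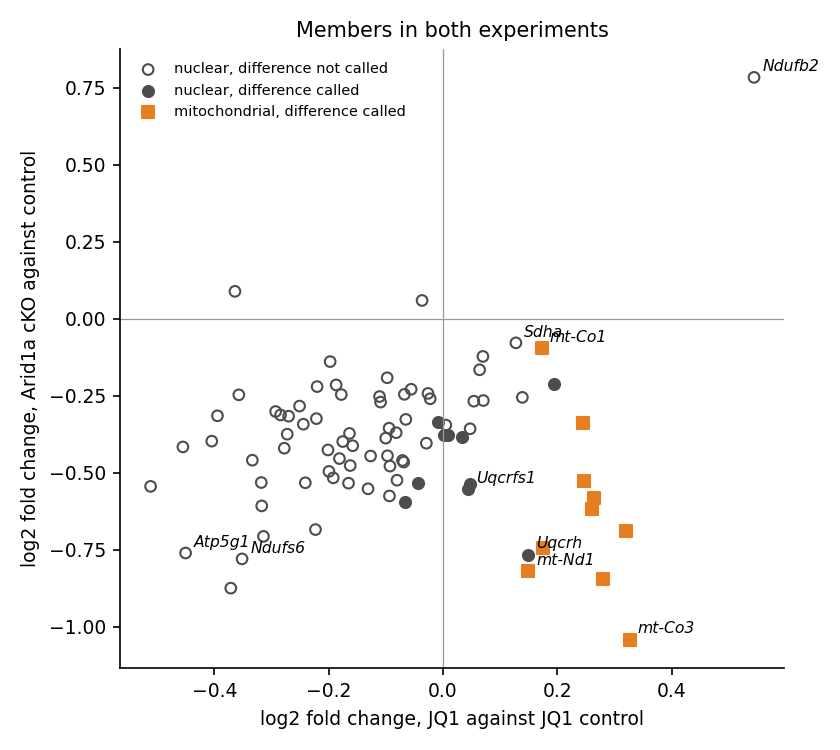
Log2 fold change after Arid1a loss (vertical) against that after JQ1 (horizontal) for members tested in both experiments, apart from *Atp5o*; circles are nuclear and squares mitochondrial genes, filled where the difference between the responses had an adjusted p under 0.05. All 10 squares lie in the lower right, below 0 after Arid1a loss and above 0 after JQ1, with *mt-Co1* nearest to 0 after Arid1a loss (-0.10 and 0.17).

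The control groups of the 2 experiments already differed in these genes. Nuclear members tested after Arid1a loss were higher in the JQ1 controls than in the Arid1a controls by a median of 0.65 on the log2 CPM scale, and mitochondrial members differed by a median of -0.85, with 0.04 over all genes tested. The tables were normalised separately, genotype and experiment cannot be told apart there, and no test was made. Markers of neutrophils moved with the groups in both experiments: 8 of 9 tested rose after Arid1a loss and 6 of 9 fell after JQ1. Summed over the list of 10, they went from 144 and 151 to 273 and 248 CPM after Arid1a loss and from 91.3 and 91.1 to 36.4 and 36.9 CPM after JQ1. *Retnlg* stayed under 10 reads in every library, and *Elane* and *Mpo*, granule genes of early neutrophils, were at or below 5.14 CPM in every library. Of the osteoclast markers, 4 of 7 tested fell after Arid1a loss and 5 of 6 after JQ1. Of the 7 monocyte and macrophage markers, 5 rose and 1 fell after Arid1a loss, with sums of 3609 and 3572 against 5223 and 5121 CPM, and 3 rose and 2 fell after JQ1, with sums of 4080 and 4025 against 4193 and 4434 CPM. Of the stromal and osteoblast markers, 1 of 4 tested fell after Arid1a loss and 4 of 5 after JQ1. Of the megakaryocyte markers, 0 of 1 tested was called after Arid1a loss, and 1 of 2 was lower after JQ1. Their sums were 118 and 89.7 against 80.2 and 83.2 CPM, and 60.7 and 66.8 against 44.3 and 46.4 CPM. Beside these lists, 16.3% of all genes tested were called lower and 18.1% higher after Arid1a loss. After JQ1 the shares were 20.5% lower and 19.3% higher. The part of cell composition in the members' changes was not tested.

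Companion genes of the same organelle were counted against the background of all genes tested, 16.3% lower and 18.1% higher after Arid1a loss and 20.5% lower and 19.3% higher after JQ1. Among 43 tested assembly factors, which build the complexes without staying in them, 8 fell and 2 rose after Arid1a loss (median -0.22), and 6 fell and 5 rose after JQ1 (median -0.02), shares near the background after Arid1a loss for falls and below it otherwise. *Ndufaf2*, an assembly factor of complex I, had 9.07 and 6.69 CPM against 3.65 and 3.40 and fell by 1.16 ± 0.24 after Arid1a loss, and changed by 0.19 ± 0.15 after JQ1. *Ndufaf4* and *Ndufaf6*, also of complex I, fell in both, by 0.65 ± 0.13 and 0.88 ± 0.18 after Arid1a loss and by 0.52 ± 0.12 and 0.83 ± 0.20 after JQ1. *Cox10*, an enzyme in the synthesis of the haem of complex IV, fell by 0.62 ± 0.13 and by 0.85 ± 0.14, from 20.4 and 21.5 to 11.5 and 11.8 CPM after JQ1.

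Of 31 tested genes that replicate, transcribe, process or translate mitochondrial DNA and RNA, 9 fell and 2 rose after Arid1a loss (median -0.26), and 9 fell and 1 rose after JQ1 (median -0.05), beside 16.3% and 20.5% of all genes called lower. *Elac2* and *Trmt10c*, which release tRNAs from the long mitochondrial transcripts, fell by 0.57 ± 0.11 and 0.62 ± 0.11 after Arid1a loss and by 0.28 ± 0.10 and 0.30 ± 0.10 after JQ1. *Tufm*, the elongation factor of mitochondrial translation, fell by 0.55 ± 0.10 and 0.24 ± 0.07. The 2 partners of the mitochondrial RNA degradosome moved apart after Arid1a loss: the helicase *Supv3l1* fell by 0.81 ± 0.14, from 44.2 and 34.8 to 23 and 22 CPM, and the exoribonuclease *Pnpt1* rose by 0.34 ± 0.10, from 88.9 and 98.1 to 117 and 120 CPM. After JQ1, *Pnpt1* fell by 0.31 ± 0.08 and *Supv3l1* changed by -0.18 ± 0.12 without passing.

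Among 18 tested regulators of mitochondrial biogenesis, 1 fell and 3 rose after Arid1a loss (median 0.07), and 3 fell and 3 rose after JQ1 (median 0.05), shares below the background in each direction. *Myc*, a transcription factor that drives growth genes, fell in both, from 374 and 361 to 201 and 208 CPM (0.84 ± 0.08) and from 59.5 and 62.9 to 36.8 and 35.9 CPM (0.75 ± 0.09). *Ppard*, a nuclear receptor for fatty acids, rose by 1.22 ± 0.15 and 0.51 ± 0.13, and *Nfe2l2*, the regulator of antioxidant genes, by 0.27 ± 0.08 and 0.40 ± 0.05. *Hif1a*, the oxygen-sensitive factor that favours glycolysis, rose after Arid1a loss by 0.42 ± 0.09 and changed by 0.01 ± 0.06 after JQ1. *Perm1*, a regulator of oxidative genes known from muscle, fell by 0.93 ± 0.19 after JQ1 and changed by 0.41 ± 0.15 after Arid1a loss without passing.

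In the citric acid cycle, which feeds the chain with NADH and succinate, 10 of 22 genes fell and 0 rose after Arid1a loss (median -0.28), while 10 fell and 4 rose after JQ1 (median -0.14), beside 16.3% and 20.5% of all genes called lower. *Idh2*, the NADP-dependent isocitrate dehydrogenase of mitochondria, had 102 and 85.0 CPM in the Arid1a controls and 35.5 and 35.4 in the cKO and fell by 1.4 ± 0.12, while it rose by 0.24 ± 0.07 after JQ1. *Idh3a*, of the NAD-dependent enzyme, fell in both, by 0.55 ± 0.10 and 0.50 ± 0.07. *Mdh2* and *Fh1*, malate dehydrogenase and fumarase, fell after Arid1a loss by 0.64 ± 0.10 and 0.57 ± 0.13, and *Ogdh* rose by 0.30 ± 0.05 after JQ1. Of 11 other electron carriers and related genes, 1 rose and 1 fell after Arid1a loss (median -0.27), and 3 rose and 3 fell after JQ1 (median -0.26), shares below the background after Arid1a loss and near it after JQ1. *Cycs*, cytochrome c itself, fell by 0.26 ± 0.06 after JQ1 and changed by -0.28 ± 0.12 after Arid1a loss (adjusted p = 0.0871). *Sqor*, which passes electrons from sulphide to ubiquinone, rose by 0.36 ± 0.11 and 0.46 ± 0.08, and *Higd2a*, an assembly factor of complex IV and supercomplexes, rose by 0.57 ± 0.10 after JQ1 and changed by -0.40 ± 0.15 after Arid1a loss.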

How the data were processed

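Bulk RNA-seq libraries of BMDMs cultured with M-CSF and RANKL were analysed from 2 deposited tables, 1 per experiment. According to the methods and labels, the authors trimmed reads with Cutadapt, aligned them to GRCm39 with HISAT2 and made read counts per gene with HTSeq. The deposited counts are whole numbers with no normalisation. No source used here names the annotation release, the strand setting or the handling of multiply aligned reads. The deposited FPKM columns were not used, and FPKM was computed from counts, gene length and library total. Columns of fold changes and p-values by the authors were not used. The 4 Arid1a columns carry sample titles; the 4 JQ1 columns carry codes that give the group but not the sample, so their libraries are called a and b.

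Each experiment was fitted over all genes with edgeR 4.0.16 in R 4.3.3 (filterByExpr, TMM, robust glmQLFit and glmQLFTest, no covariates), with Benjamini-Hochberg adjustment over all genes tested and a threshold of 0.05. The difference between responses was a contrast of the 4 group means over 8 libraries. Standard errors are the log2 fold change divided by the square root of F. Errors given with ± are these standard errors, with 2 libraries per group. The fits were tested on simulated data with 200 changed genes, drawn with means and spreads estimated from these libraries. That is a check of the code and not of the calls in the real libraries. Alternatives used DESeq2 1.42.0, limma 3.58.1, other factors and filters, length corrections and left-out libraries. Library-specific trends were lowess fits of log ratios, recentred. Copied sequence was searched as exact stretches of 75 and 150 bases of canonical GENCODE vM39 transcripts in GRCm39, on both strands, outside the gene itself. The read length is not given in the sources used here.

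The members, lists and tests were chosen with earlier results of these data known. Named genes were all mitochondrial members, up to 4 nuclear members per complex and experiment with the smallest p, members called against the majority, the 6 members with the smallest p for the difference, the 6 most abundant nuclear members, tissue isoforms, and from each companion list up to 4 genes per experiment with the smallest p; *Ndufs1* was added after its values were seen. Not every gene that the rule allows is printed. The fits cover the sampling spread of the counts, and not reads assigned to the wrong gene or strand. Their precision at 15108239 to 17302136 reads per library rests on 2 libraries per group. The mitochondrial ribosomal RNAs were not analysed here.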

Additional observations from a re-analysis of the deposited data

Results flagged for a closer look

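The responses to Arid1a loss and to JQ1 differed for the following genes by the test of the difference itself, over all 8 libraries; each value is the log2 change after Arid1a loss minus that after JQ1. Among mitochondrial members it was -0.97 for *mt-Nd1*, -0.78 for *mt-Nd2*, -1.01 for *mt-Nd4*, -0.58 for *mt-Nd5*, -0.92 for *mt-Nd6*, -0.85 for *mt-Cytb* and -0.27 for *mt-Co1*. On the few counted reads of the copied genes it was -0.88 for *mt-Co2*, -1.37 for *mt-Co3* and -1.12 for *mt-Atp6*. In all 10 the value after Arid1a loss was the lower one.

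Among nuclear members it was -0.39 for *Ndufa4*, -0.38 for *Ndufs1*, -0.58 for *Ndufv1*, -0.60 for *Uqcrfs1*, -0.92 for *Uqcrh*, -0.41 for *Cox7a2l*, -0.49 for *Cox7b*, -0.33 for *Atp5a1*, -0.53 for *Atp5d* and -0.42 for *Atp5pb*. For *Cox6a2* the fitted value was 10.05, which depends on the prior count because the gene had 0 reads in both Arid1a controls, and is no measure of size. Among the companion genes it was -1.35 for *Ndufaf2*, 0.65 for *Pnpt1*, -0.64 for *Supv3l1*, 0.70 for *Ppard*, 1.34 for *Perm1*, 0.40 for *Hif1a*, -1.64 for *Idh2*, -0.38 for *Ogdh*, -0.58 for *Fh1*, -0.50 for *Mdh2* and -0.97 for *Higd2a*. No group held enough libraries to look for a library far from its group.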

How the results depend on the processing

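The mitochondrial fall after Arid1a loss, 8 calls, gave 6 to 9 under other factors, tools, filters and length corrections, 8 to 10 without 1 library, and 1 at a fold of at least 2. The 10 mitochondrial differences gave 8 to 10. The 8 rises after JQ1 became 4 in 1 fit over 8 libraries, 0 at a fold of at least 2, and 4 to 9 without 1 library (4 without JQ1 library a).

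The 37 nuclear falls after Arid1a loss became 19 with the GC and transcript length correction, 0 at a fold of at least 2, and 9 to 66 without 1 library; the 1 rise became 0 with a strict filter, 3 with that correction, and 0 to 1 without 1 library. The 26 nuclear falls after JQ1 became 12 in DESeq2, 14 with the gene length correction, 17 with the GC and transcript length correction, 6 in 1 fit over 8 libraries, 1 at a fold of at least 2, and 9 to 31 without 1 library (9 without JQ1 control b). The 2 rises became 1 with upper-quartile factors, DESeq2, limma-trend and a strict filter, 5 and 6 with the length corrections, 0 in 1 fit and at a fold of at least 2, and 0 to 3 without 1 library. The 10 nuclear differences became 20 with no filter and 3 to 46 without 1 library (3 without cKO 2 or JQ1 control a, 46 without control 2), and the 1 in the other direction became 0 with a strict filter and 0 to 1 without 1 library.

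Over all genes, 3892 calls after Arid1a loss became 2235 to 6083, 4516 after JQ1 became 3251 to 3915, and 3333 differences became 2214 to 4965 without 1 library; 1 fit gave 2973 after JQ1. The log2 ratio of summed reads after JQ1, 0.15 for mitochondrial and -0.15 for nuclear members, was 0.20 and -0.10 on CPM. After Arid1a loss, *Cox6a1* turned to 0.20 and *Ndufa4* to 0.053 with the GC and transcript length correction, and *Cox8a* to 0.024 and 0.074 with the 2 length corrections. The causes were not tested beyond what each setting removes. Of the members' values, 666 of 753, 658 of 753 and 701 of 780 kept direction and side of the threshold after Arid1a loss, after JQ1 and for the difference.

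With a replicate block, 44 nuclear and 9 mitochondrial members were lower after Arid1a loss, and 4400 genes were called. Same-numbered libraries did not deviate together (correlation 0.0227 over all genes and -0.251 over the 88 members tested), so the numbers were not taken to pair them. The JQ1 columns carry numbers in their codes that no label ties to a sample (correlation -0.0372 over all genes and 0.0103 over the 89 members tested). With these as a replicate block, chosen after seeing the data, 26 nuclear members were lower and 1 higher and 7 mitochondrial ones higher after JQ1, and 13 nuclear and 9 mitochondrial ones were lower in the difference. There *mt-Nd1* and *Sdha* were not called after JQ1, nor *mt-Co1* in the difference. The share of reads without mitochondrial ribosomal RNA was not run. With 2 libraries per group, each left-out library leaves 1 whose spread is assumed to be that of the others. Copied genes with few counted reads limit what depth can show for *mt-Nd3*, *mt-Nd4l* and *mt-Atp8*.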
